A study of Mus musculus with 42 samples.

Results

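Immediate-early activity genes are genes whose transcription rises within minutes when a neuron is excited or a cell meets a stimulus, without the need for new protein. A chosen set of 34 such genes was taken from the 37907 genes of the expression table and followed through 4 hypothalamic nuclei of fed and fasted mice. The members are a list of gene names, and the rule that defines them uses no measured value. They comprised 6 AP-1 subunits (Fos, Fosb, Fosl2, Jun, Junb, Jund), 4 EGR zinc-finger factors (Egr1 to Egr4), 3 NR4A orphan nuclear receptors (Nr4a1 to Nr4a3), 9 other induced transcription factors (Npas4, Klf2, Klf4, Klf10, Atf3, Maff, Crem, Ier2, Ier5), 9 brakes on signalling and growth (Dusp1, Dusp5, Dusp6, Sik1, Btg2, Gadd45b, Gadd45g, Zfp36, Ier3) and 3 synaptic effectors (Arc, Homer1, Nptx2).

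All animals were adult males of the strain C57/BL6 and wild-type. One set ate ad libitum and the other was deprived of food for 24 hours. The arcuate nucleus (ARC), ventromedial hypothalamus (VMH), dorsomedial hypothalamus (DMH) and paraventricular nucleus (PVN) were cut from cryosections with a laser, and their RNA was amplified before sequencing. The 42 libraries comprised 5 fed and 5 fasted of the ARC, 6 and 6 of the VMH, 5 and 4 of the DMH, and 6 and 5 of the PVN. Nuclei of the same brain gave several of these libraries, but the labels do not tie libraries to mice, so tests between nuclei treat them as separate. Levels are RPKM, reads scaled by exon length and by library depth, and every change is a difference of means of log2(RPKM + 1).

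Calcium entry and growth factor signals reach these genes through kinases that phosphorylate factors already bound at their promoters, among them CREB, which binds the cAMP response element, and serum response factor. The first proteins made, such as Fos and Egr1, are transcription factors that switch on later genes, while others, such as the phosphatase Dusp1, shut the signal down. In the hypothalamus Fos is the customary marker of neurons that were recently active, and hunger-activated neurons of the ARC are a textbook case of its use.

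Promoters of 5 members are shown because all 5 genes were lower in the VMH than in the mean of the other 3 nuclei of fasted mice, as described further on, and because they differ in one short word. Each run is the 250 bases before the RefSeq transcript start on GRCm38.p6, 5′ to 3′ on the gene's strand. Capitals mark TGACG, the core of the cAMP response element, on either strand (CGTCA when read on the other strand), and the full palindrome TGACGTCA where both overlap.
Fos, chr12:85473640-85473889, plus strand: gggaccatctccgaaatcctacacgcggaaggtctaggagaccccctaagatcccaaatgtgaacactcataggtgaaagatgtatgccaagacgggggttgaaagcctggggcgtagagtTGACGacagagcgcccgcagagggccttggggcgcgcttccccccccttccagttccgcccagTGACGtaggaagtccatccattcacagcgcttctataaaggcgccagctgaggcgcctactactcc
Btg2, chr1:134079156-134079405, minus strand: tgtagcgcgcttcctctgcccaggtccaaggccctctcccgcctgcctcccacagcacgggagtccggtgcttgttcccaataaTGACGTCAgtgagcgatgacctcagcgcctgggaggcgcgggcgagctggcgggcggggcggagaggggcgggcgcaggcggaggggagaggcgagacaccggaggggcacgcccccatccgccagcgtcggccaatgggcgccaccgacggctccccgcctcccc
Nr4a1, chr15:101266596-101266845, plus strand: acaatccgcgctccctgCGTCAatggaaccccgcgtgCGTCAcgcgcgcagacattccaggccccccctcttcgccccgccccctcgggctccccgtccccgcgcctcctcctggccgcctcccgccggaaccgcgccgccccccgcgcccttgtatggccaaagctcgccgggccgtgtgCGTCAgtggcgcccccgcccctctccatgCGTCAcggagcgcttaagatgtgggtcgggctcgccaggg
Nr4a2, chr2:57124004-57124253, minus strand: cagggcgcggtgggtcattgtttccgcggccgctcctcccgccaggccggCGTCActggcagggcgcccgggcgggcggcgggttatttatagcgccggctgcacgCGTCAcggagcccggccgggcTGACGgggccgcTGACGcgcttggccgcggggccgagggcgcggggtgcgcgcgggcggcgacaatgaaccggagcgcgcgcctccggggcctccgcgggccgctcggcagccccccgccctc
Jun, chr4:95052223-95052472, minus strand: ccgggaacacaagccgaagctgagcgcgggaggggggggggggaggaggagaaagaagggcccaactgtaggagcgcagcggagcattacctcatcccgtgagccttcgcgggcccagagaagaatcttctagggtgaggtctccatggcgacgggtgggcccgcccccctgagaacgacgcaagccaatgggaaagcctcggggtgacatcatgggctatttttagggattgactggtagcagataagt

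Fos held 2 matches, which began 129 and 66 bases before the start. Btg2 held its 2 as the overlapping strands of 1 palindrome, Nr4a1 and Nr4a2 held 4 each, and Jun held 0. A RefSeq promoter was matched to 26 of the 34 members, and 17 of the 26 held TGACG on either strand (65.4%), against 19.8% of all 27025 genes with such a window. The palindrome TGACGTCA stood in 3 (Maff, Dusp1, Btg2), against 1.77% of genes. GCGNGGGCG, the EGR word, stood in 10, against 5.33% of genes, and the AP-1 word TGACTCA stood in 0, against 5.16%. The CArG box of serum response factor was found in 3 (Egr2, Dusp5, Zfp36), against 1.62% of genes, and the MEF2 box in 3 (Jun, Klf2, Atf3), against 0.592%. Among members with a promoter, TGACG stood in 7 of the 9 lower in the fasted VMH and 5 of the 7 lower in the fed VMH, and likewise in 6 of the 8 higher in the fed PVN and 3 of the 5 higher in the fasted PVN, against 17 of the 26 matched members. These are letter matches in 1 window and not measured binding. No promoter was matched for Egr1, Egr3, Arc, Ier2, Klf10, Crem, Sik1 and Nptx2, so the counts do not cover them. Sites more than 250 bases before the start were not searched, so a missing word does not mean that a gene lacks it.

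All 34 members passed the filter on low values (RPKM of at least 1 in at least 4 libraries), which took no account of groups and left 33579 genes. The reads behind the values could be read back for 1412 of the 1428 member values. The median was 30 reads, 28.0% of values rested on fewer than 10 reads and 8.36% on 0 reads. Counts of 0 were spread over 14 members, most often Egr3 (19 libraries), Dusp5 (18), Ier2 (16), Atf3 and Gadd45b (14 each). A library without a read for a gene still has an RPKM above 0, because a small number of reads was added before the logarithm, so the lowest levels below are floors and not expression. The estimated depth ran from 1329000 to 13249000 reads per library. Markers of the 4 nuclei were highest in the nucleus of the label, but the summed DMH markers (Ppp1r17 and Gpr50) in the PVN read 12.9 to 28.9 RPKM in fed and 35.7 to 69.7 in fasted libraries, without overlap, against 86.3 to 117 in the DMH. Ppp1r17 rose in the fasted PVN by 1.28 (SE 0.25, adjusted p = 0.0345, limma), and its part in the PVN values of the members was not tested. The libraries fell into 3 inferred batches of 10, 16 and 16, and the first held no fasted DMH library.

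On GRCm38, Fos lies at chr12:85473890-85477273 (plus strand), Fosl2 at chr5:32135801-32157842 (plus), Jun at chr4:95049034-95052222 (minus), Nr4a1 at chr15:101254269-101274795 (plus), Nr4a2 at chr2:57106830-57124003 (minus) and Nptx2 at chr5:144545902-144557478 (plus). Exons of another annotated gene covered 52.6% of the exon bases of Jund (Gm11175), 22.1% of Dusp5, 8.01% of Crem (Gm6225), 7.52% of Junb (Prdx2) and 7.28% of Jun (Junos). Whether strand was used in counting is not given in the sources used here, so the levels of these 5 members are less certain.

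The first comparison asked whether a 24-hour fast changed the members within each nucleus. It did not move any of them past the threshold: 0 of 34 members had an adjusted p under 0.1 in the ARC, VMH, DMH or PVN (limma, Benjamini-Hochberg over all 33579 genes). The background shares of genes called were 0.0566%, 0.131%, 0.0238% and 0.0715%, so few genes of any kind passed. Averaged over the 4 nuclei, 0 of 34 were called against 0.5% of genes, and for a change that differed between nuclei 0 of 34 against 0.00596%. At an unadjusted p under 0.05 the counts were 4, 4, 2 and 6 members in the ARC, VMH, DMH and PVN, where 7.5%, 7.31%, 6.48% and 5.53% of all genes stood, and 5 in the average, where 7.14% stood. For the difference between nuclei 3 stood there, against 4.39%. In captured tissue fewer cells that express a gene and less RNA per cell cannot be told apart, and the study's methods describe the libraries of a group as biological replicates.

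The median change over the 34 members was 0.08, -0.01, 0.06 and -0.08 in the ARC, VMH, DMH and PVN and 0.01 in the average, and over all genes it rounded to 0 in each. The precision was modest. The median half-width of a member's 95% interval was 0.63, 0.57, 0.67 and 0.60 in the same order, and 0.31 in the average. In the average all 34 intervals lay within a change of 1 in either direction, whereas within single nuclei 20, 26, 24 and 20 did so.

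**Figure D1:**
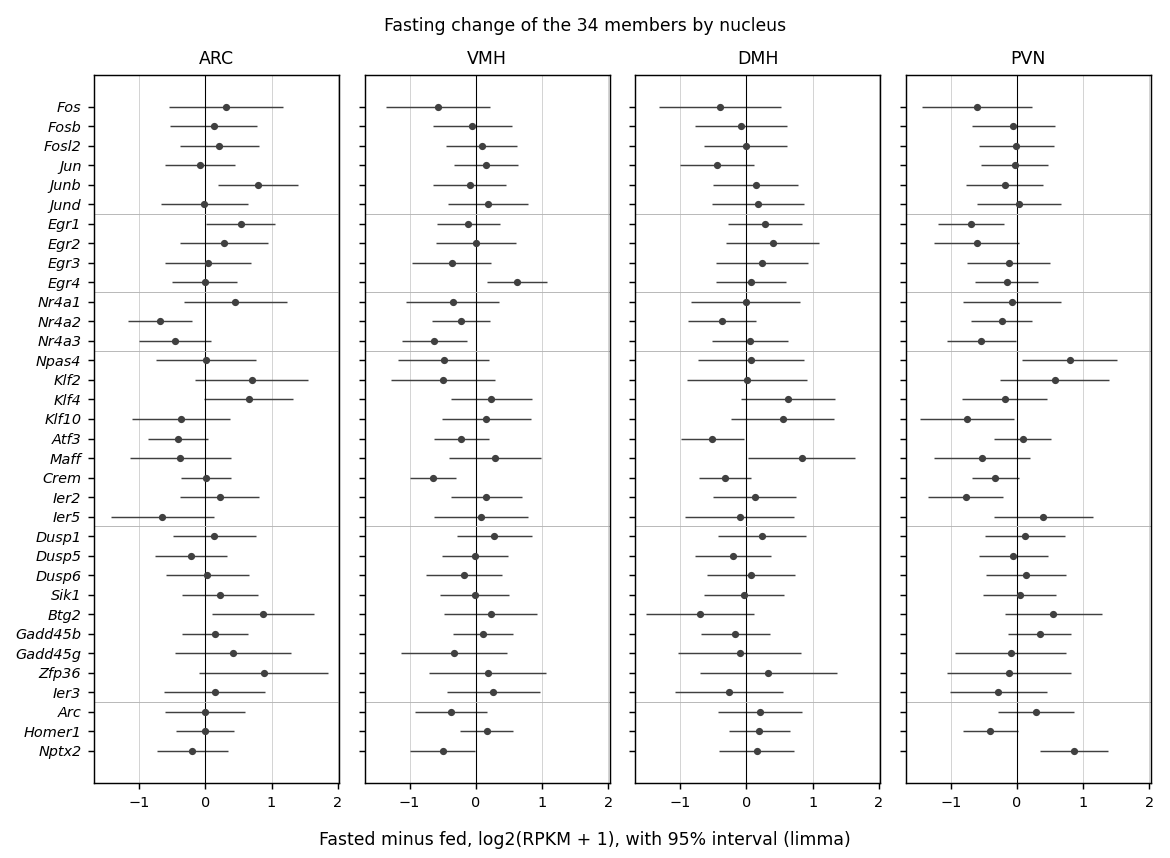
Change of each member with fasting in the 4 nuclei, as fasted minus fed in log2(RPKM + 1) (horizontal axis), with points for the estimate and bars for the 95% interval. Most bars cross 0 (30, 30, 32 and 28 of 34 in the ARC, VMH, DMH and PVN), and no member passed the adjusted threshold.

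Fos, the inducible partner in the AP-1 dimer and the usual readout of neuronal activity, showed no common direction. In the ARC its fed libraries read 5.86, 2.64, 5.12, 5.69 and 2.94 RPKM and its fasted libraries 11.9, 5.47, 4.04, 4.29 and 4.29. The fasted ARC library 1 stood above all others and the remaining 4 lay within the fed range, and the change was 0.31 (SE 0.43). In the VMH the 6 fed libraries ran from 0.708 to 4.64 (median 2.65) and the 6 fasted from 0.639 to 1.96 (median 1.12). Fed libraries 1 and 4 lay within the fasted range and the other 4 above it, for a change of -0.57 (SE 0.39). In the DMH the fed libraries read 10.3, 5.32, 7.81, 4.20 and 4.28 and the fasted 5.81, 3.83, 6.73 and 2.17, which overlapped. The change there was -0.40 (SE 0.45) and in the PVN -0.60 (SE 0.41), and the adjusted p-values of the 4 nuclei ran from 0.760 to 1 (limma).

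The PVN value of Fos depended on the batch that held fasted library 1. The fasted PVN libraries read 0.928, 5.15, 4.39, 15.9 and 6.45 RPKM against 4.80 to 19.7 in the 6 fed (median 5.99), and library 1, with 1 Fos read, stood far below all others. Fasted library 3 was just under the fed range, and libraries 2, 4 and 5 lay within it. Within the inferred batches the fasted minus fed difference was -3.25, -0.20 and 0.82, and with batches 2 and 3 only it was 0.31. Library 1 was also the lowest of the 5 fasted PVN libraries in 20 of the 34 members, and library 4, with 383 Fos reads, was the highest in 14.

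**Figure D2:**
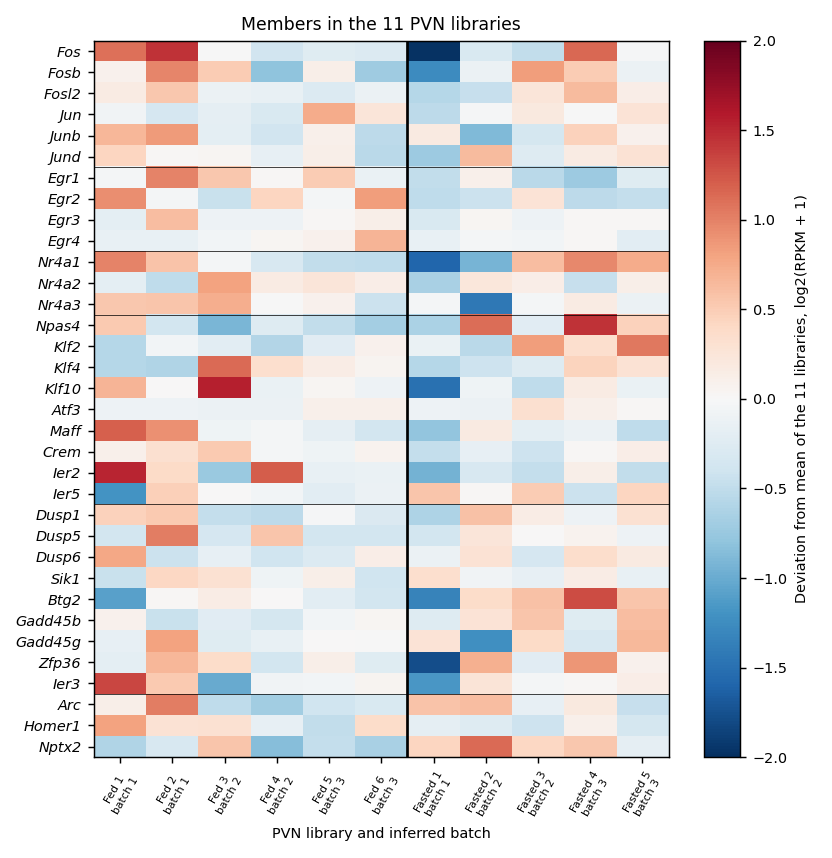
Members (rows) in the 6 fed and 5 fasted PVN libraries (columns), coloured by the deviation from the mean of the 11 libraries in log2(RPKM + 1). Fasted library 1 lay below that mean in 28 of 34 members, and fasted library 4 above it in 25.

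No other AP-1 subunit was called. Junb, a partner of Fos that restrains Jun, read 1.80, 1.82, 2.89, 2.02 and 3.14 RPKM in fed ARC libraries and 2.18, 6.48, 6.19, 7.07 and 3.41 in fasted ones. Of the fasted libraries 4 lay above every fed one and 1 within their range, but the change of 0.80 (SE 0.30) had an adjusted p of 0.613 (limma). Fosl2, the long-lived Fos relative, changed by 0.21, 0.09, -0.01 and -0.01 in the ARC, VMH, DMH and PVN.

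Egr1, the zinc-finger factor induced by neuronal and growth factor signals, differed in sign between nuclei. Its level in the ARC was 27.7, 8.74, 8.29, 9.82 and 16.3 RPKM in fed and 11.2, 27.5, 16.2, 23.9 and 19.7 in fasted libraries. Fed library 1 was the highest of all 10, and the change was 0.53 (SE 0.26, adjusted p = 0.655, limma). The within-batch differences there were -1.23, 1.22 and 0.73. In the PVN it ran from 40.7 to 90.7 in 6 fed libraries (median 55.1) and read 31.8, 48.5, 30.4, 26.7 and 37.8 in the fasted. All but fasted library 2 lay below the lowest fed library, and the change of -0.69 (SE 0.25) had an adjusted p of 0.689 (limma). The within-batch differences in the PVN were all below 0, at -0.97, -0.50 and -0.67. In the VMH and DMH it changed by -0.11 and 0.28. The difference in change between nuclei did not pass either (adjusted p = 1, limma).

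Egr4, a shorter relative of Egr1, ran in the VMH from 0.547 to 1.55 in fed libraries and from 0.941 to 5.92 in fasted ones, a change of 0.62 (SE 0.22, adjusted p = 0.422, limma). The fasted VMH library 1 alone reached 5.92, and the next was 2.48.

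The NR4A receptors, act as early transcription factors without a known classical ligand. Nr4a2, which is also needed for dopaminergic neurons, read in the ARC 6.73, 11.6, 10.7, 4.02 and 7.77 RPKM in fed and 4.96, 4.68, 4.53, 3.27 and 4.94 in fasted libraries. Fed library 4 lay inside the fasted range and the other 4 fed libraries above it, and the change was -0.68 (SE 0.24, adjusted p = 0.543, limma). Averaged over the nuclei it was -0.37 (SE 0.12, adjusted p = 0.243, limma), and without fed ARC library 4 it was -0.42 with an adjusted p of 0.0997 (limma).

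Nr4a3 read 1.73 to 4.06 RPKM in the 6 fed VMH libraries (median 2.93) and 0.950 to 2.0 in the 6 fasted (median 1.51). Fasted libraries 3 and 6 and fed library 4 made up the overlap. It changed by -0.46, -0.63, 0.06 and -0.54 in the ARC, VMH, DMH and PVN and by -0.39 (SE 0.13, adjusted p = 0.317, limma) in the average. Nr4a1, a common reporter of recent stimulation, changed by 0.45, -0.35, -0.01 and -0.07, and by 0.00 in the average. In the PVN its fed libraries ran from 6.84 to 21.2 RPKM (median 8.95) and its fasted read 2.73, 4.89, 16.1, 20.8 and 17.7, so that fasted libraries 1 and 2 lay below the fed range and 3, 4 and 5 in its upper part. In the other nuclei it ran from 1.19 to 8.50 RPKM over both states. Its PVN value turned to 0.69 with batches 2 and 3 only.

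Crem came closest to the threshold. It belongs to the CREB family, and an internal promoter of the gene makes the repressor ICER, which a value for the whole gene cannot separate. In the VMH the 6 fed libraries read 1.62 to 3.57 RPKM (median 2.59) and the 6 fasted 0.741 to 2.84 (median 1.11). Of the fasted libraries 5 lay below every fed one, and library 1 stood among the upper fed libraries. The change was -0.65 (SE 0.17, adjusted p = 0.180, limma), the within-batch differences were -0.52, -0.48 and -0.93, and without fasted VMH library 1 it was -0.80 with an adjusted p of 0.0405 (limma). Its changes in the DMH and PVN were -0.33 each and in the ARC 0.01, and the average was -0.32 (SE 0.09, adjusted p = 0.146, limma). Leaving out ARC-Fed library 1, VMH-Fed library 4, VMH-Fast library 1 or DMH-Fast library 1 in turn gave it an adjusted p under 0.1, as did array weights and batches 2 and 3 only (lowest 0.0352, limma).

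Npas4, a factor induced in neurons by calcium entry, changed by 0.01, -0.49, 0.07 and 0.80 in the ARC, VMH, DMH and PVN. In the PVN the fed libraries ran from 0.902 to 4.14 RPKM (median 1.64) and the fasted read 1.30, 6.78, 2.04, 8.71 and 3.92. Fasted libraries 2 and 4 stood above the fed range and the other 3 within it (adjusted p = 0.869, limma).

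Maff, a small partner factor without an activation domain, was the only member whose fed and fasted libraries did not overlap in any nucleus, against 1.15% of genes in the DMH (0.742%, 0.277% and 0.402% in the ARC, VMH and PVN). In the DMH it had 0, 7, 0, 0 and 0 reads in fed and 20, 19, 16 and 21 in fasted libraries. The change was 0.83 (SE 0.40, adjusted p = 0.762, limma). The fasted DMH libraries were deeper, at an estimated 4781000 to 13249000 reads against 2942000 to 5052000, and the part of depth in this value was not tested. No member was called in the DMH with depth as a term or without it. Atf3, a stress-induced factor, read 3.30, 0.732, 1.63, 2.86 and 0.782 RPKM in fed and 1.03, 0.718, 0.711 and 1.05 in fasted DMH libraries, and Klf4 read 1.0, 1.14, 0.725, 0.979 and 2.22 in fed and 2.37, 4.56, 1.44 and 1.73 in fasted ones. Both overlapped. Atf3 changed by -0.51 (SE 0.24) and Klf4 by 0.63 (SE 0.35) in the same nucleus, with adjusted p-values of 0.762 and 0.869 (limma).

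Ier2, a small nuclear protein, changed by -0.77 in the PVN (SE 0.28, adjusted p = 0.702, limma), where its fed libraries held 56, 8, 0, 30, 13 and 13 reads and its fasted ones 0, 3, 2, 19 and 7. The groups overlapped, and the within-batch differences were -1.90, -0.64 and -0.04. Btg2, an antiproliferative gene induced by p53 and by activity, read 4.55, 1.95, 1.52, 4.46 and 2.24 RPKM in fed and 4.20, 8.66, 5.45, 6.78 and 4.98 in fasted ARC libraries. Of the fasted libraries 4 lay above every fed one, yet the change was 0.87 (SE 0.38, adjusted p = 0.647, limma). In the DMH and PVN it changed by -0.70 and 0.55.

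Among the synaptic effectors, Arc, which removes AMPA receptors from synapses, changed by 0.00, -0.37, 0.20 and 0.28 in the ARC, VMH, DMH and PVN. Its levels over both states spanned 1.07 to 2.44 RPKM (ARC), 0.652 to 3.46 (VMH), 1.42 to 5.02 (DMH) and 2.51 to 10.6 (PVN), and fed and fasted libraries overlapped in each nucleus. Nptx2, a secreted pentraxin that gathers AMPA receptors, read 0.756, 1.15, 2.94, 0.480, 0.924 and 0.712 RPKM in fed and 2.62, 4.88, 2.57, 2.89 and 1.37 in fasted PVN libraries. Every fasted library lay above 5 of the 6 fed ones, and fed library 3 lay within the fasted range. The change was 0.86 (SE 0.25, adjusted p = 0.416, limma), the within-batch differences were 0.90, 0.92 and 0.74, and with array weights the adjusted p was 0.0675 (limma).

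**Figure D3:**
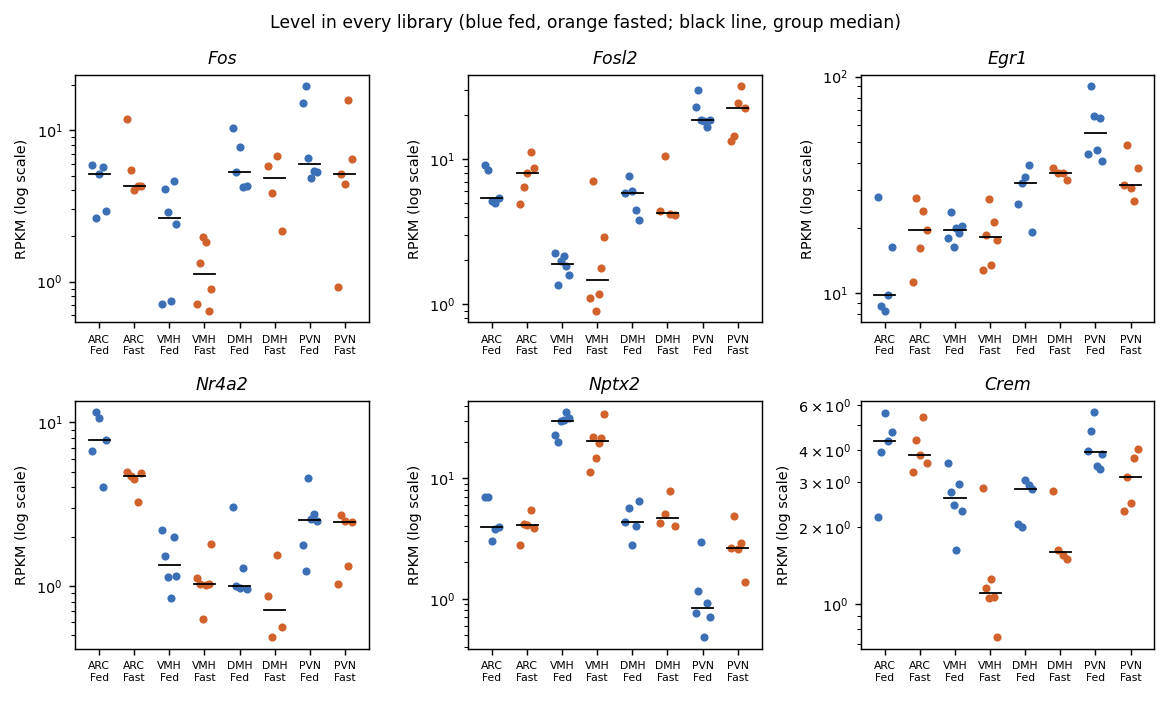
Level of 6 members in every library (RPKM, log scale), with fed libraries in blue, fasted in orange and group medians as black lines. The fed and fasted libraries of a nucleus overlap for each gene, while the PVN and VMH medians stand apart from the rest for Fosl2 and Nptx2 and the ARC median for Nr4a2.

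Other gene lists were counted in the same fits. Of 16 further rapid-response genes 0 were called in the ARC, VMH and DMH and 1 in the PVN, Rgs2, an inhibitor of G-protein signalling, which rose by 1.09 (SE 0.13, adjusted p = 1.12e-05, limma). Of 10 delayed activity genes, which follow the early factors, Rgs4 fell by 0.57 in the VMH (SE 0.12, adjusted p = 0.0705, limma) and by 0.28 in the average (SE 0.07, adjusted p = 0.0511, limma), and Scg2, a granin of secretory granules, rose by 0.14 in the average (SE 0.04, adjusted p = 0.0806, limma). Of 21 upstream kinases and factors 0 were called in any nucleus or in the average. The 17 genes known to be induced by glucocorticoids changed by a median of 0.55 in the average, and 8 of them were called, against 0.5% of genes. All 8 rose, including Cdkn1a (1.67, SE 0.19), the hypoxia factor Hif3a (1.19, SE 0.14), Zbtb16 (1.07, SE 0.19) and the metallothionein Mt2 (1.07, SE 0.12). This list, like the others, was chosen with earlier results of these data known, so its count is not an independent contrast to the members.

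The second comparison asked how the members' levels differed between nuclei. In fed mice 19 of 34 members differed between the 4 nuclei (55.9%), against 12.4% of genes (limma F-test, adjusted p under 0.1). In fasted mice, which are other animals, 17 differed (50%), against 11.9%, and 15 members were called in both states. The background includes 4751 genes with a single value within every batch, which cannot be called, and without them it was 14.5% in fed and 13.9% in fasted mice. Among the 17399 genes at 5 RPKM or more in at least 4 libraries it was 21.9% and 21.3%, and 15 and 14 of the 22 members among them were called. The 13 members called in neither were Jund, Egr3, Nr4a3, Npas4, Klf2, Klf10, Maff, Ier5, Dusp5, Dusp6, Gadd45b, Gadd45g and Zfp36. With batches 2 and 3 only, the fed count was 11.

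Each nucleus was next set against the mean of the other 3. In fed mice 12 members were higher in the PVN (Fosb, Fosl2, Jun, Junb, Egr1, Nr4a1, Klf4, Ier2, Dusp1, Sik1, Btg2, Arc), against 3.18% of genes, and 2 were lower (Atf3, Nptx2), against 2.58%. In the VMH 8 were lower, against 4.57%, and 1 was higher (Nptx2), against 5.25%. In the ARC 2 were higher and 2 lower, against 2.38% and 2.24%, and in the DMH 1 was higher and 1 lower, against 1.33% and 1.01%. The nuclei are not independent in these contrasts, since a member high in one lowers the others by construction.

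The same contrasts in fasted mice were added after the fed values were seen. In them 7 members were higher in the PVN, against 2.9%, and 13 were lower in the VMH, against 4.64%. With estimated depth as a term 10 were lower in the VMH, and the calls of Nr4a1, Nr4a2 and Nr4a3 were lost. In the opposite direction 3 were lower in the PVN (Egr2, Homer1, Nptx2; 2.49%) and 3 higher in the VMH (Egr4, Homer1, Nptx2; 4.79%). Over 52 alternatives the Homer1 call was lost in 12 in the fasted PVN and in 6 in the fasted VMH. Fosb in the fasted PVN was lost in 12 and Nr4a3 in the fasted VMH in 7. In the fasted ARC 3 were higher (Jun, Nr4a2, Crem; 2.9%) and 1 lower (Ier3; 2.65%), and in the fasted DMH 1 was higher (Egr2; 1.19%) and 1 lower (Nr4a2; 0.485%). All 7 in the PVN (Fosb, Fosl2, Jun, Nr4a1, Sik1, Btg2, Arc) were among the 12 of fed mice, and all 8 of fed VMH (Fos, Fosb, Fosl2, Jun, Nr4a2, Dusp1, Sik1, Btg2) were among the 13. The PVN had the highest mean RPKM for 19 members in fed and 15 in fasted mice, and the VMH the lowest for 13 and 23. This ranking was not made over all genes, and it counts small differences and levels near the floor in full.

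**Figure D4:**
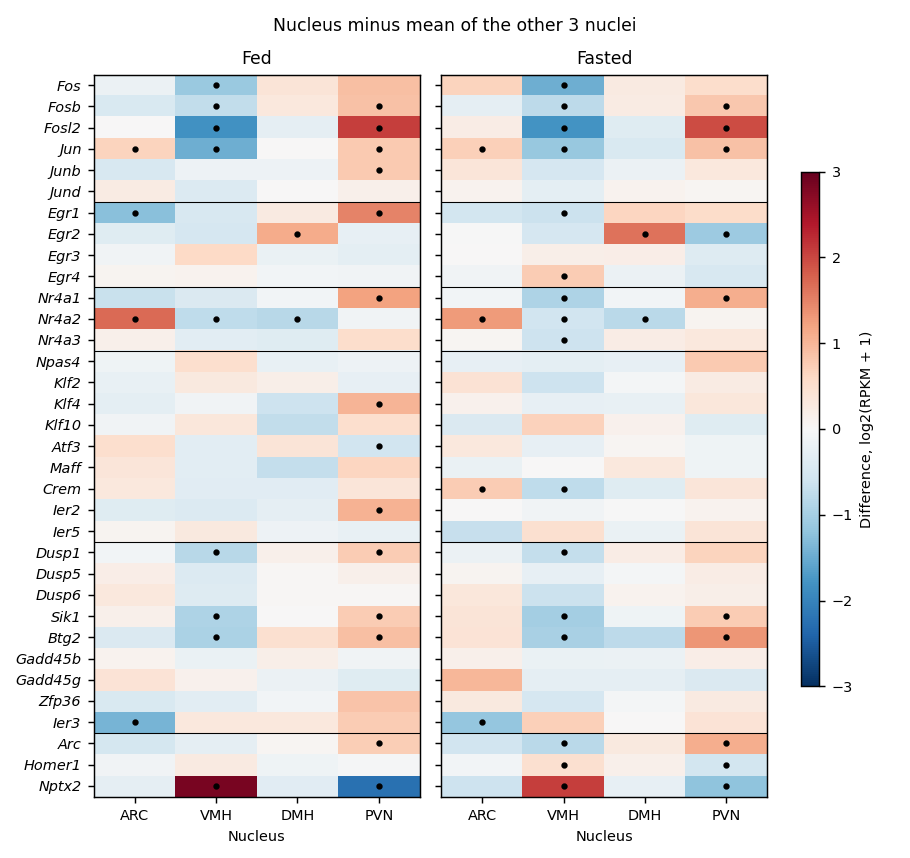
Difference of each member between 1 nucleus and the mean of the other 3 in log2(RPKM + 1), in fed (left) and fasted (right) mice. Red is higher, blue is lower, and dots mark an adjusted p under 0.1. The PVN had the highest mean RPKM for 19 members in fed mice and the VMH the lowest for 23 in fasted mice. This ranking was not made over all genes. Nptx2, Egr3 and Egr4 had their highest mean in the VMH and their lowest in the PVN, but Egr3 and Egr4 on few reads.

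Fosl2 was higher in the PVN and lower in the VMH. In fed mice it ran from 16.6 to 30.0 RPKM in the PVN, from 1.36 to 2.25 in the VMH, from 4.98 to 9.05 in the ARC and from 3.78 to 7.61 in the DMH. No PVN library overlapped with any other nucleus and no VMH library either. The difference from the mean of the other nuclei was 2.06 in the PVN (SE 0.22, adjusted p = 1.77e-08, limma) and -1.82 in the VMH (SE 0.22, adjusted p = 1.35e-07, limma). In fasted mice they were 1.96 and -1.80, with fasted PVN libraries from 13.3 to 32.0 and fasted VMH libraries from 0.895 to 7.06, the latter in library 2.

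Jun, the partner of Fos proteins in AP-1, ran in fed mice from 3.41 to 10.3 RPKM in the VMH and from 10.4 to 33.0 in the other 3 nuclei, with no overlap. The difference in the VMH was -1.47 (SE 0.20, adjusted p = 1.08e-06, limma), and in the PVN and the ARC it was 0.79 and 0.68. The ARC call was lost without fed ARC library 1, 2 or 4. Fos itself was lower in the VMH, with a difference of -1.11 in fed mice (adjusted p = 0.0238, limma) and -1.45 in fasted mice (adjusted p = 0.00262, limma). The 6 AP-1 subunits were all above 0 in the PVN and all below 0 in the VMH, in both states, with medians of 0.83 and -0.92 in fed mice.

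In fed mice Egr1 ran from 8.29 to 27.7 RPKM (ARC), 16.4 to 23.8 (VMH), 19.2 to 39.3 (DMH) and 40.7 to 90.7 (PVN), where no PVN library overlapped with another nucleus. It was higher in the PVN, at 1.48 above the mean of the others (SE 0.20, adjusted p = 1.25e-06, limma), and lower in the ARC, at -1.26 (SE 0.21, adjusted p = 8.37e-05, limma). In fasted mice the PVN difference was 0.56 (adjusted p = 0.176, limma) and the ARC difference -0.55 (adjusted p = 0.173, limma), and the change of this pattern with fasting was the interaction given above, which was not called. Nr4a1 was higher in the PVN of both fed mice (1.20, adjusted p = 0.00801, limma) and fasted mice (1.09, adjusted p = 0.0355, limma).

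Not all of the 12 members called in the fed PVN were equally firm. Without fed PVN library 2, which had an estimated 1877000 reads and the highest value of its group in 13 members, 6 were called (Fosl2, Jun, Egr1, Nr4a1, Klf4, Ier2), and with batches 2 and 3 only 7 were. Without fasted PVN library 4 the fasted count fell from 7 to 4 (Fosl2, Jun, Btg2, Arc). Without fed VMH library 4 the 8 members lower in the fed VMH became 4 (Fosl2, Jun, Nr4a2, Sik1).

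Nr4a2 was higher in the ARC and lower in the DMH. In fed mice it ran from 4.02 to 11.6 RPKM (ARC), 0.838 to 2.19 (VMH), 0.952 to 3.03 (DMH) and 1.23 to 4.57 (PVN). Fed ARC library 4 alone fell below the highest PVN library. The ARC difference was 1.69 (SE 0.19, adjusted p = 8.02e-08, limma) and 1.29 in fasted mice, and the DMH difference was -0.83 (SE 0.19, adjusted p = 0.0140, limma) and -0.82 in fasted mice.

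Egr2, known from hindbrain patterning and myelination, was the member that was higher in the DMH. Fed DMH libraries read 7.38, 8.64, 1.75, 1.22 and 3.88 RPKM and fasted ones 5.46, 4.60, 7.52 and 3.96, while the other 3 nuclei reached at most 2.63 in fed and 3.0 in fasted mice. The fed DMH libraries overlapped with the other nuclei and the fasted ones did not. The difference was 1.12 in fed mice (SE 0.26, adjusted p = 0.0177, limma) and 1.63 in fasted mice (adjusted p = 0.00101, limma), and the fed call was lost without fed DMH library 1 or 2 (0.91 and 0.86) and with batches 2 and 3 only (0.97).

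Ier3, a stress-response gene that promotes survival, was lower in the ARC, at 0.984 to 3.09 RPKM in fed mice against 1.72 to 18.2 elsewhere. The groups overlapped at the low end, and the difference was -1.39 in fed mice (SE 0.30, adjusted p = 0.00336, limma) and -1.15 in fasted mice (adjusted p = 0.0214, limma).

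Nptx2 was higher in the VMH and lower in the PVN. Egr3 and Egr4 also had their highest mean RPKM in the VMH and their lowest in the PVN, in both states, but on few reads. Egr3 had a median of 5 reads in the fed and 2 in the fasted VMH and was called in neither state. The fed means of Egr4 were 1.07 RPKM in the VMH and 1.06 in the ARC, and its fasted VMH mean included library 1 at 5.92. Nptx2 read 20.1 to 35.3 RPKM in the fed VMH, 3.01 to 7.05 in the fed ARC, 2.77 to 6.44 in the fed DMH and 0.480 to 2.94 in the fed PVN. The VMH libraries overlapped with no other nucleus, and only PVN library 3 reached the DMH range. The difference was 2.84 in the VMH (SE 0.20, adjusted p = 5.10e-13, limma) and -2.25 in the PVN (SE 0.20, adjusted p = 2.89e-10, limma), and in fasted mice it was 2.07 and -1.20.

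The other pathway lists were counted in the same contrasts. Of all genes 3.18% were higher and 2.58% lower in the fed PVN, and 5.25% higher and 4.57% lower in the fed VMH. Of 16 further rapid-response genes 2 were higher and 0 lower in the fed PVN, and 1 higher and 2 lower in the fed VMH. Of the 17 glucocorticoid-induced genes 0 were higher and 1 lower in the fed PVN, and 3 higher and 0 lower in the fed VMH. In fed mice 6 of 10 delayed activity genes were higher and 1 was lower in the PVN, and 5 were lower and 2 higher in the VMH. Of the 21 upstream kinases and factors 11 were higher and 0 lower in the VMH, and 1 was higher and 9 lower in the PVN. In fasted mice the 21 gave 12 higher and 2 lower in the VMH, and 1 higher and 5 lower in the PVN. In the fasted VMH the 16 rapid-response genes gave 0 higher and 6 lower. The 10 delayed genes gave 2 and 6 there and the 17 glucocorticoid-induced genes 1 and 3. Shares of all genes were 4.79% higher and 4.64% lower in the fasted VMH, and 2.9% and 2.49% in the fasted PVN.

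Markers of cell types also differed between nuclei. All 7 endothelial markers were higher in the fed PVN (median difference 0.81), and 5 were called, against 3.18% of genes. Their summed level there ran from 68.2 to 95.5 RPKM against 24.5 to 72.7 in the other 3 nuclei. Klf2 and Klf4 are also made by vessel cells. Klf4 was called higher in the fed PVN and Klf2 was not called. Klf2 had its lowest fed mean there (1.48 RPKM), on 2 to 18 reads per library. All 6 oligodendrocyte markers were higher in the fed VMH (median 1.06), and 4 were called, against 5.25% of genes. Their summed level there was 193 to 303 RPKM against 66.7 to 158 elsewhere. Neuron markers summed to 1102 to 1278 RPKM in the fed VMH, 722 to 883 in the PVN, 708 to 778 in the DMH and 577 to 644 in the ARC. The 6 neuron markers did not move together: 3 were called higher and 1 lower in the fed VMH, and 3 higher and 2 lower in the fed PVN. Of tanycyte and ependymal markers 1 was higher and 2 lower in the fed PVN. In the fed VMH 1 of them and 1 astrocyte marker were lower. In the fed ARC 5 endothelial, 4 neuron, 3 oligodendrocyte and 3 astrocyte markers were lower, against 2.24% of genes. There 3 tanycyte and 1 astrocyte markers were higher, against 2.38%. No microglia marker was called in these 3 nuclei. The part of these cell markers in the members' differences was not tested.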

How the data were processed

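RNA from laser-captured ARC, VMH, DMH and PVN of fed and fasted mice was amplified and sequenced. Per the labels and processing notes of the submitters, CASAVA 1.7, TopHat2 2.0.11, Cufflinks 2.2.1, edgeR and limma were used with GRCm38, and the deposited values are RPKM for 37907 genes in 42 libraries. The values hold no 0: each fits a count plus added reads (1.46 to 14.5 per library, mean 5.00), rescaled per gene within 3 batches inferred from recurring lowest values, which the labels do not name. Reads and depth were read back from these steps, so depth is an estimate and low levels are compressed. Read-back was checked on simulated data. The rescaling left the batches with equal means: for the median gene the largest batch deviation in mean log2 RPKM was 5.69e-08. Batches held different mixes of nuclei and states, so this step could shift differences between groups. The fits took no account of it, so p-values can be too small, and the batch term was fitted to values already rescaled.

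Groups came from the labels. log2(RPKM + 1) of genes at 1 RPKM or more in at least 4 libraries (33579 genes) was fitted with limma 3.58.1 in R 4.3.3, with 8 group means over all 42 libraries and an intensity trend. Tests were two-sided, p-values were adjusted by Benjamini-Hochberg over all genes, and an adjusted p under 0.1 was called. The members, lists and tests were chosen with earlier results of these data known. Per-library values were given for members called with fasting, the 3 with the lowest p in each nucleus and in the average, and Fos, Egr1, Arc, Npas4 and Nr4a1, and between nuclei for the 3 called members with the largest difference in fed mice. Genes of other lists were named only where called with fasting. Alternatives were another pseudocount, filters, quantile normalization, fits per nucleus, array weights, a replicate block, batch and depth terms, robust variance and leaving out each library. The alternative of batches 2 and 3 only, the nucleus contrasts in fasted mice and the narrower sets of background genes were added after seeing the data. Promoters came from RefSeq on GRCm38.p6 and gene positions and exons from GENCODE on GRCm38. A mouse could not be used as a block, because the labels do not tie nuclei to mice.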

Additional observations from a re-analysis of the deposited data

Results flagged for a closer look

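In 14 of the 99 combinations of member and group that were tested, 1 library stood apart from the rest of its group by Dixon's test. Its cut-offs are passed in about 1 in 20 groups of normally distributed values. RPKM was tested without a logarithm and the combinations share libraries, so the 14 cannot be set against that rate. Arc read 10.6 RPKM in fed PVN library 2. Crem read 2.76 in fasted DMH library 1 and 2.84 in fasted VMH library 1. Egr2 read 2.45 in fed ARC library 5 and Egr4 read 5.92 in fasted VMH library 1. Fos read 11.9 in fasted ARC library 1 and Jun read 32.7 in fed ARC library 4. Klf4 read 2.22 in fed DMH library 5, Maff read 1.23 in fed DMH library 2, Npas4 read 4.14 in fed PVN library 1 and Nptx2 read 2.94 in fed PVN library 3. Nr4a2 read 3.27 in fasted ARC library 4, the lowest of its group, and 3.03 in fed DMH library 1, the highest of its group. Nr4a3 read 0.843 in fasted PVN library 2, the lowest of its group.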

How the results depend on the processing

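Of 680 recomputed counts of members 665 stayed within 1.5 times the reported count and 15 did not. The reported fasting and interaction counts were 0, where only another 0 was scored as staying. The 665 therefore include repeats of 0 and do not measure how firm the counts between nuclei were. With array weights 1 member was called with fasting in the PVN (Nptx2) and 1 in the average (Crem), and with batches 2 and 3 only 1 in the average. Leaving out 1 library gave 0 to 1 members called in the VMH and 0 to 1 in the average. With batches 2 and 3 only, 11 members differed between nuclei in fed mice, 7 were higher in the fed PVN and 11 in the fasted PVN. Leaving out 1 library gave 6 to 13 members higher in the fed PVN, 4 to 8 in the fasted PVN and 4 to 9 lower in the fed VMH.

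Changes that were not called turned sign, most of them close to 0 but also Fos in the PVN (from -0.60) and Nr4a1 in the VMH (from -0.35). For Egr1 the average became 0.0061 with a pseudocount of 0.1, 0.024 with quantile normalization, 0.071 with array weights, 0.0019 with batch as a term and 0.16 with batches 2 and 3 only, and -0.037 to 0.067 when 1 library was left out; its VMH change became 0.029 with batches 2 and 3 only. For Nr4a1 the average became -0.0011 with a pseudocount of 0.1, -0.013 with the replicate block, -0.013 with depth as a term and -0.058 to 0.10 with 1 library left out. Its DMH change became 0.10 with array weights, 0.0034 with batch as a term, 0.16 with batches 2 and 3 only and -0.14 to 0.16 with 1 library left out. Its PVN change became 0.48 with array weights, 0.69 with batches 2 and 3 only and -0.32 to 0.31 with 1 library left out, and its VMH change became 0.10 with batches 2 and 3 only. For Arc the average became -0.017 with array weights, -0.034 with batches 2 and 3 only and -0.018 to 0.084 with 1 library left out, and its ARC change became 0.055 with depth as a term and -0.094 to 0.089 with 1 library left out. For Npas4 the ARC change became -0.024 with depth as a term and -0.16 to 0.19 with 1 library left out, and the DMH change -0.086 and -0.26 to 0.27. For Fos the PVN change became 0.31 with batches 2 and 3 only. The cause was not tested.

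Libraries with the same replicate number did not deviate together (correlations of -0.13 to 0.07, 0 of them above 0.1). Neither did libraries with other numbers (-0.13 to 0.10). Some libraries came from the same brain, so this check misses shared mice and cannot tell whether the numbers pair the libraries. With the replicate block 0 members were called with fasting, as without it. Between nuclei the block ended the calls of Jun in the fed ARC, Fosb in the fed and fasted VMH and the fasted PVN, Nr4a1 and Nr4a3 in the fasted VMH, and Homer1 in the fasted VMH and PVN. Depth limits the members: 28.0% of their values rested on fewer than 10 reads, and within a nucleus the median 95% interval spanned 0.57 to 0.67 on either side.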
